A study of Persea americana and Macadamia integrifolia and Mangifera indica with 6 samples.

Results

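miR172 is a conserved plant microRNA family that represses transcripts of APETALA2 (AP2)-like transcription factors, and its abundance was examined in leaves of juvenile and mature avocado, macadamia and mango trees. Members were all entries of the deposited miRNA table whose name holds miR172 followed by a non-digit. This gave 6 of 123 entries, 3 from Arabidopsis and 3 from rice, and 1 of 20 families. Entries with the same values in all 6 libraries were taken as 1 sequence, so the 6 entries stand for 2 of the 53 distinct sequences in the table. The first is shared by ath-miR172a, ath-miR172b-3p, osa-miR172a and osa-miR172d-3p and is called the miR172a sequence here. The second is shared by ath-miR172e-3p and osa-miR172b and is called the miR172e-3p sequence. Of the 6 entries 0 name the 5p arm, against 35 in the whole table, so the values describe the 3p strand.

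The series holds 1 small RNA library per species and age. Juvenile leaves were the youngest fully expanded leaves of 1 month old seedlings, and mature leaves came from trees that had already flowered, 10 years old in avocado (Hass) and macadamia (HAES741) and 5 years old in mango (Kensington Pride). No transgene or treatment is stated for any plant, leaves were pooled from several plants, and mature avocado trees were grafted while mature mango trees were true seedlings. Seedlings grew in a nursery or glasshouse and mature trees in the field, so age and growing conditions cannot be told apart. The table holds miRNAs only, so the leaf identity of the samples was not checked against marker genes. Depth, recovered from the steps between the values, ran from 1141472 reads of 20 to 24 nt in juvenile mango to 7509125 in mature avocado.

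In Arabidopsis the age pathway runs from miR156 and its relative miR157 to miR172. miR156 holds down SPL transcription factors in juvenile shoots. As it declines, SPL9 and SPL10 activate MIR172b, and the miR172 made from it represses the AP2-like genes AP2, TOE1, TOE2, TOE3, SMZ and SNZ, which delay adult traits and flowering. High miR172 is therefore known as a mark of adult leaves in annual plants.

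The mature sequences that the study used as forward primers for qRT-PCR are printed because both families are compared in each library below. Each is written 5′ to 3′ as DNA, with the seed (bases 2 to 8) in capitals.
miR172: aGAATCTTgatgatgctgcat
miR156: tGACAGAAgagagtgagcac
miR172 is 21 nt and miR156 is 20 nt long, and their seeds share the base at 2 of 7 positions. A transcript site paired to miR172 along its whole length would read atgcagcatcatcAAGATTCt, where the capitals pair with the seed. The deposited table gives names and values without sequences, and these primers were not matched to its entries.

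miR172 was detected in all 6 libraries and was more abundant in the mature library of each species. Levels are given as RPM, the authors' scaling of reads to those of 20 to 24 nt in a library. The juvenile avocado library held 6595 miR172 reads (1432 RPM) and the mature one 43386 (5778 RPM). The mature avocado level was 4.04-fold higher (95% interval 3.93 to 4.14). For macadamia, 9409 juvenile reads came to 1304 RPM and 3495 mature reads to 2035 RPM, which made the mature level 1.56-fold higher (1.5 to 1.62). The larger read number of the juvenile macadamia library thus turned into the lower level once depth was taken into account. For mango, 526 juvenile reads came to 461 RPM and 3846 mature reads to 852 RPM, and the mature level was 1.85-fold higher (1.69 to 2.03). These exact (Clopper-Pearson) intervals cover counting error of independent reads only. Each species and age had a single library, so replicate error is unknown and ages were not tested within a species. From the same sequencing the paper had put miR172 at 4-fold higher in mature avocado and under 2-fold in macadamia and mango. By replicated qRT-PCR, not analysed here, the paper reported the highest miR172 in mature avocado trees. It reported no significant difference between juvenile and mature macadamia or mango, although the mean level of both was highest at the mature age.

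The level of miR172 also differed between species. From high to low, mature avocado was 2.84-fold above mature macadamia, which was 1.42-fold above juvenile avocado. Juvenile avocado was 1.1-fold above juvenile macadamia, the closest neighbours in this order. Juvenile macadamia was 1.53-fold above mature mango, which was in turn 1.85-fold above juvenile mango. On RPM both mango libraries therefore lay under every avocado and macadamia library, mature mango included. Counting intervals of neighbours on RPM did not overlap, even for juvenile avocado (1397 to 1467 RPM) and juvenile macadamia (1278 to 1330 RPM). The order depends on the denominator. Of all reads given to the listed miRNAs, miR172 made up 1.21% in juvenile avocado and 1.73% in juvenile macadamia, with both mango libraries still lowest. Without miR159 in that total, a choice made after seeing the data, mature mango (1.88%) lay above juvenile avocado (1.59%). The spread between trees is not measured by these libraries, and reads were counted against Arabidopsis and rice sequences only, so a species whose own miR172 differs from these would be undercounted.

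**Figure D1:**
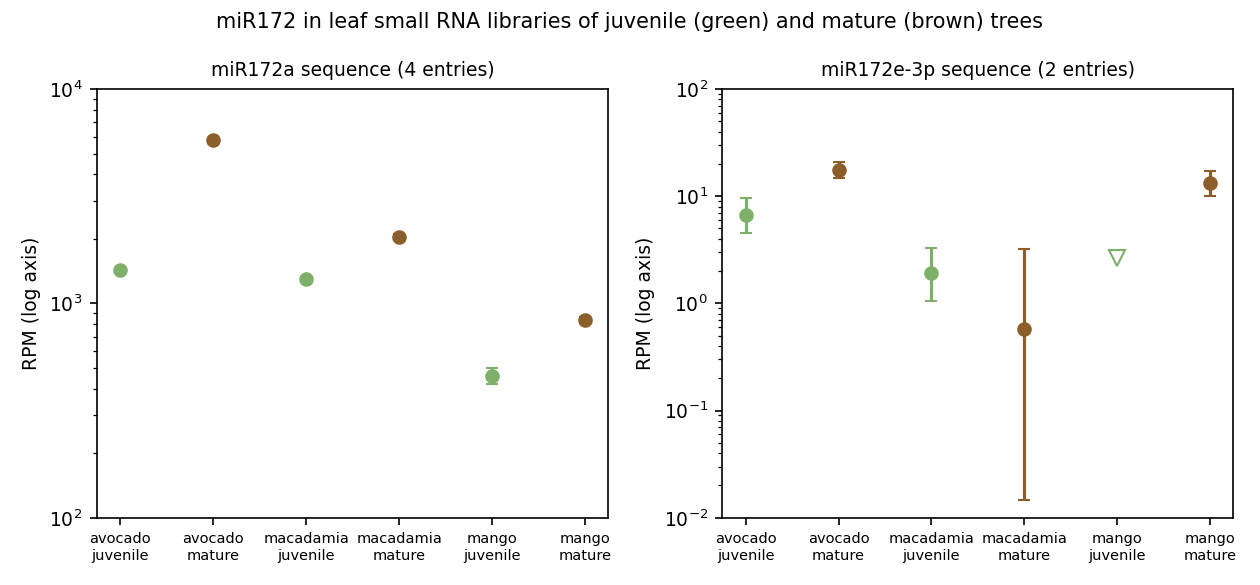
RPM (log axis) of the 2 distinct miR172 sequences in the 6 libraries, with juvenile leaves in green and mature leaves in brown. Bars are exact 95% counting intervals, and the open triangle marks a library with 0 reads at the level of 3 reads (2.63 RPM). The miR172a sequence is higher in the mature library of every species, whereas the miR172e-3p sequence stays at or under 17.6 RPM. The latter is higher in the mature library of avocado and mango, and the interval of its macadamia ratio includes no difference.

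Only the 2 miR172 sequences in the deposited table are counted here. Nearly all of their reads were the miR172a sequence. It held 99.5% of the family in the juvenile avocado library and 99.7% in the mature one. The share was 99.9% in juvenile macadamia, all but 1 of 3495 reads in mature macadamia, all 526 reads in juvenile mango and 98.4% in mature mango. Its own level went from 1425 to 5760 RPM between the avocado libraries. It went from 1302 to 2034 RPM between those of macadamia and from 461 to 838 RPM between those of mango. The family ratio in each species is therefore that of a single sequence, at 4.04-fold, 1.56-fold and 1.82-fold in avocado, macadamia and mango.

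The miR172e-3p sequence was rare and did not follow the same pattern in each species. Between juvenile and mature avocado it went from 31 to 132 reads, or from 6.73 to 17.6 RPM, a 2.61-fold higher level (1.76 to 4.0). The fold of the main sequence was larger over the same pair of libraries (4.04), and the share of the rare one was lower, at 0.304% of miR172 reads (0.255 to 0.361) against 0.470% (0.320 to 0.667), with intervals that overlap. In macadamia it had 14 reads in juvenile leaves and 1 read in mature leaves, a ratio of 0.300 with an interval from 0.00710 to 1.97, so no difference in level was detectable at this depth. Its share there was 0.149% (0.0814 to 0.25) and 0.0286% (0.000724 to 0.159).

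In mango the rare sequence was seen only in the mature library. It had 0 of 526 miR172 reads in juvenile leaves, which allows a share of up to 0.570% at a floor of 3 reads and 0.699% by the exact interval, and 60 of 3846 reads in mature leaves, a share of 1.56% (1.19 to 2.0). At the mature share 8.21 of the juvenile reads would have been this sequence. The mature level of 13.3 RPM is 5.06-fold higher than a juvenile level set at a floor of 3 reads in that library. This is no lower bound, since the exact 95% interval of the ratio starts at 3.99. A share within the family does not depend on how a library is scaled. Mature mango had the largest share of this sequence among the 6 libraries, and its interval lay above those of the avocado and macadamia libraries.

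In 5 of the 6 libraries most other families with several distinct sequences were more mixed than miR172. The share of reads outside the most abundant sequence, taken anew in each library, exceeded that of miR172 in 8 of the 12 other such families of the juvenile avocado library and in 9 of 14 in the mature one. It did so in 10 of 14 families of juvenile macadamia, in 12 of 13 of mature macadamia and in 11 of 12 of juvenile mango. In mature mango the share was larger than that of miR172 in 6 of 13 families and smaller in 7. Some of these families had fewer than 20 reads in a library, so their shares are imprecise. The number of distinct sequences also differs, at 6 for miR159 and 5 for miR166 against 2 for miR172, and the share was not adjusted for it. Other families also differed in this share between the mango libraries, at 22.4% in juvenile and 16.8% in mature leaves for miR396. For miR157 it was 20.9% and 10.7%. It was nearer between the ages for miR159, at 0.881% and 0.943%, and for miR167, at 0.295% and 0.188%. These families are examples, and a different share in the mature mango library was not particular to miR172.

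miR172 was a family of middle rank in juvenile leaves and of higher rank in mature leaves. In avocado it was the tenth of 20 families in the juvenile library, between miR394 (2036 RPM) and miR171 (1159 RPM), and the fourth in the mature library, between miR167 (11507 RPM) and miR166 (2564 RPM). In macadamia it moved from the eighth place, between miR166 (2202 RPM) and miR394 (819 RPM), to the third, between miR396 (12034 RPM) and miR164 (1927 RPM). In mango it moved only from the seventh place, between miR394 (705 RPM) and miR164 (456 RPM), to the sixth, between miR160 (3889 RPM) and miR156 (273 RPM). The gap to miR164 was small in juvenile mango (461 against 456 RPM) and in mature macadamia (2035 against 1927 RPM).

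Against the other families, the miR172 ratio was high in avocado and less so elsewhere. On the log2(RPM + 1) scale its ratio of mature over juvenile leaves was 2.01 in avocado, the second of 15 families at 10 RPM or more after miR393, a regulator of the TIR1 auxin receptors. The macadamia value was 0.64, the fourth of 18 after miR399, miR398 and miR168. The mango value was 0.88, the sixth of 16 after miR162, miR160, miR159, miR166 and miR167. In avocado miR172 passed 2-fold, as did 20% of the families tested there (3 of 15). In macadamia and mango it did not, while 11.1% (2 of 18) and 31.2% (5 of 16) of families were at least 2-fold higher. Over the distinct sequences at 10 RPM or more, 14.7% were at least 2-fold higher in mature avocado, 5.88% in mature macadamia and 37.9% in mature mango. The rare miR172e-3p sequence was among these in avocado and mango and did not reach 10 RPM in macadamia, and it passed that filter through its mature library alone.

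**Figure D2:**
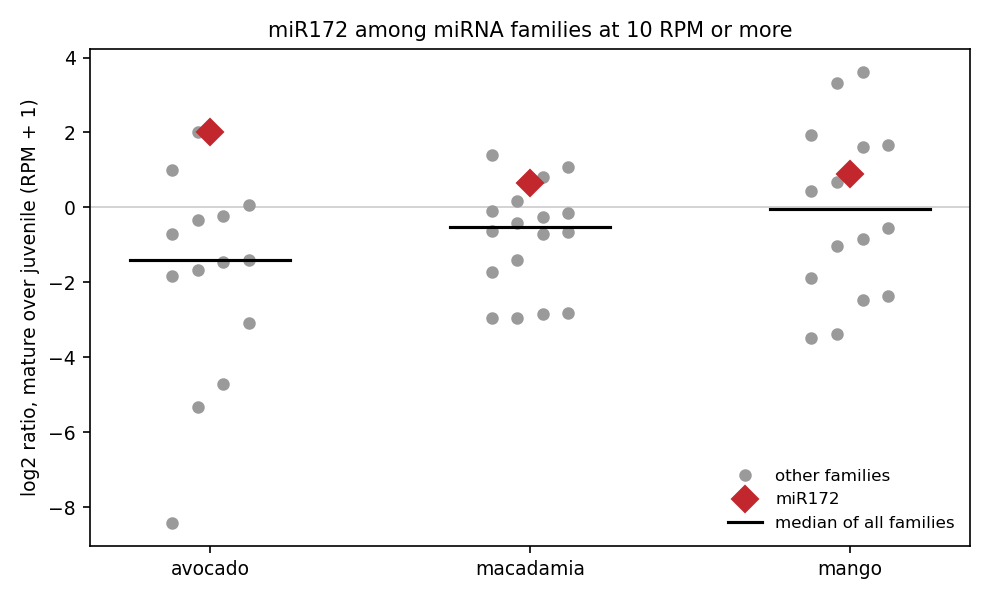
Log2 ratio of mature over juvenile leaves, on RPM + 1, of each family with at least 10 RPM in 1 or both libraries of a species. miR172 (red diamond) lies above the median of all families (black line, -1.39 in avocado, -0.53 in macadamia and -0.05 in mango) in each species, and other families are grey points.

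miR172 was the only family higher in the mature library of all 3 species, out of the 13 that reached 10 RPM in every species, whereas 6 families were lower in all 3. This depends on how the libraries are scaled. With each species rescaled to a median log2 ratio of 0, miR159 and miR167 join it, and with libraries scaled to the listed miRNA reads the 2 families higher in all 3 are miR159 and miR167, since miR172 is then lower in mature mango.

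The choice of denominator mattered for miR172 in all species. Of all reads given to the listed miRNAs, miR172 made up 1.21% in juvenile avocado against 10.3% in mature avocado, an 8.55-fold difference (8.33 to 8.78). In macadamia it made up 1.73% and 3.67%, 2.13-fold higher in mature leaves (2.04 to 2.21). In mango it made up 0.593% and 0.512%, which is 1.16-fold lower in mature leaves (1.06 to 1.27) and turns the direction seen per 20 to 24 nt reads. Beside this, the part of 20 to 24 nt reads given to listed miRNAs was lower in mature avocado (5.59%) than in juvenile avocado (11.9%). It was also lower in mature macadamia (5.54%) than in juvenile macadamia (7.55%). In mango it was 7.77% in the juvenile library and 16.6% in the mature one. The miR159 family, a repressor of GAMYB-like transcripts, held 41.0% and 72.7% of the listed reads of juvenile and mature mango. A total without miR159 was added after these values were seen, so it is no independent check of the direction in mango. By that total miR172 was 1.01% and 1.88% of the listed reads of juvenile and mature mango, 1.87-fold higher (1.71 to 2.05). The same total gave 9.45-fold and 2.54-fold higher levels in mature avocado and macadamia.

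**Figure D3:**
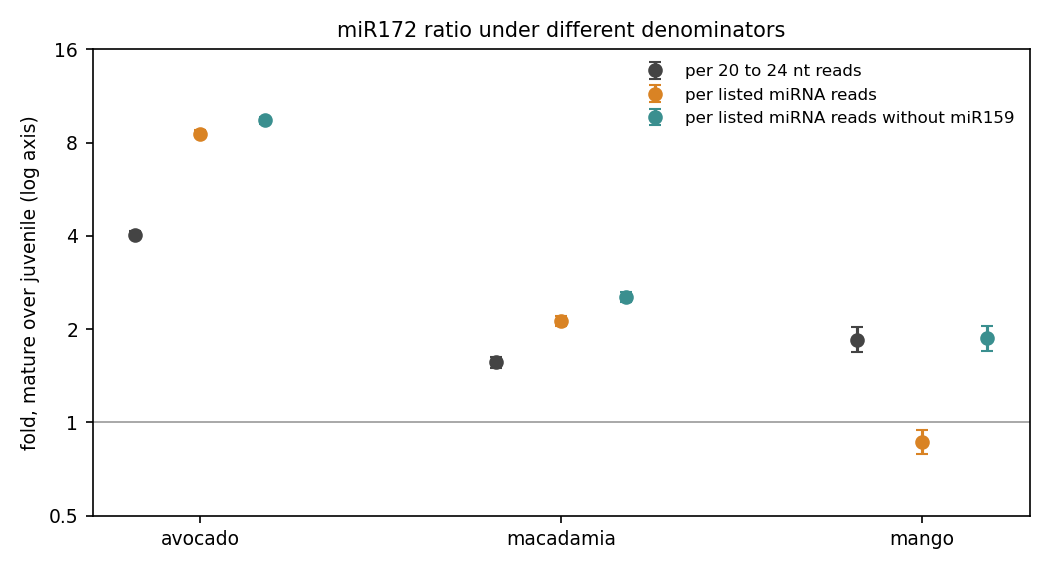
Fold of miR172 in mature over juvenile leaves (log axis) with its reads divided by the reads of 20 to 24 nt, by all listed miRNA reads, or by the listed reads without miR159. Bars are exact 95% counting intervals, and of the 9 points only that of mango per listed miRNA reads, at 0.863, lies under 1. The points without miR159 were added after the values were seen.

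Set against miR156 in the same library, where no scaling is needed, miR172 was relatively more abundant in the mature library of each species. Abundance here means reads, and whether the libraries captured both families equally well was not measured. In avocado the 6595 miR172 reads of juvenile leaves stood against 34263 miR156 reads, so miR156 was 5.20 times as abundant (5.06 to 5.33). In mature avocado 43386 miR172 reads stood against 2117 miR156 reads, and miR172 was 20.5 times as abundant (19.6 to 21.4). The order of both families was thus reversed between the ages. In macadamia it was reversed too, with miR156 2.46 times as abundant (2.40 to 2.52) in juvenile leaves and miR172 4.45 times as abundant (4.12 to 4.82) in mature leaves. In mango miR172 was already the more abundant in juvenile leaves, at 1.15 times miR156 (1.01 to 1.31), and reached 3.12 times (2.93 to 3.33) in mature leaves. The ratio of miR172 to miR156 was 106-fold higher in mature than in juvenile avocado, 11-fold in macadamia and 2.71-fold in mango.

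miR157 changed this picture in mango. miR157 shares the SPL targets of miR156, and in juvenile mango it had 2831 reads, more than miR156 (457) and miR172 (526) together. Over the reads of miR172, miR156 and miR157, the miR172 part was 8.94% in the juvenile avocado library and 92.6% in the mature one. It went from 16.6% to 69.7% between the macadamia libraries and from 13.8% to 62.5% between the mango libraries. On this measure juvenile mango lay between juvenile avocado and juvenile macadamia, and miR172 was the majority in each mature library and the minority in each juvenile library. The ratio of miR172 to the sum of both relatives was 128-fold, 11.5-fold and 10.4-fold higher in mature avocado, macadamia and mango. These shifts combine the higher miR172 and the lower miR156 and miR157 levels, whose log2 ratios of mature over juvenile leaves were -4.72 and -5.32 for avocado, -2.81 and -2.96 for macadamia and -0.55 and -3.37 for mango.

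**Figure D4:**
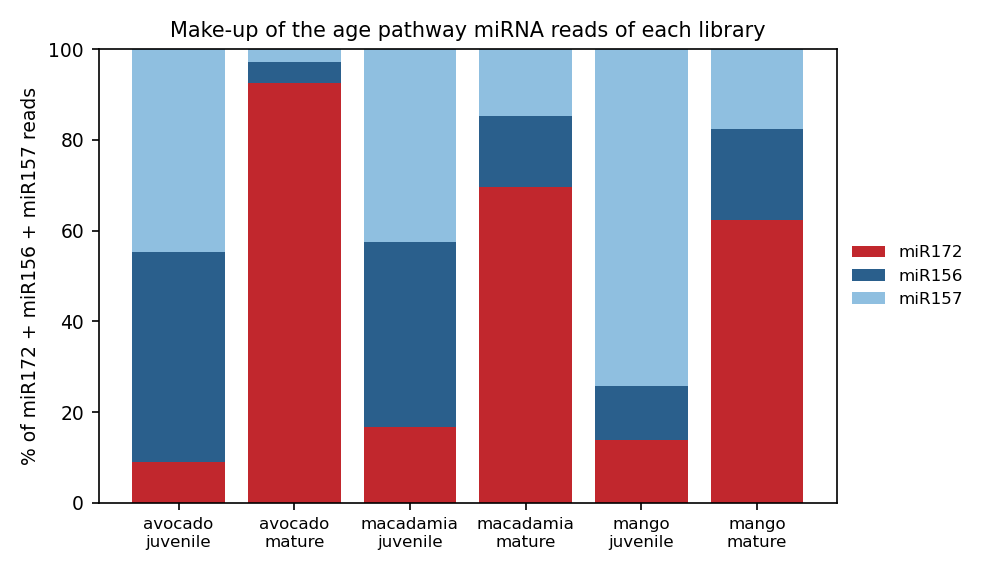
Percentage of the summed miR172, miR156 and miR157 reads that belongs to each family in each library, with bars stacked to 100%. The miR172 part (red) is 8.94% to 16.6% in the juvenile libraries and 62.5% to 92.6% in the mature ones.

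Across the 3 species taken as replicates of age, the higher miR172 level of mature leaves did not pass the test. limma was run on log2(RPM + 1), with species entered as a block. For the miR172a sequence it gave a log2 fold change of 1.17 (SE 0.89, 95% interval -0.62 to 2.97, higher in 3 of 3 species) and an adjusted p of 0.495 over the 23 distinct sequences at 10 RPM or more in every species. Of these, 0 were called higher in mature leaves (0%) and 3 lower (13%), and 6 had an unadjusted p from limma under 0.05, of which 0 were higher in mature leaves. All 23 sequences share this SE, so the interval does not measure the spread of miR172 itself between species. The family had a log2 fold change of 1.18 and an adjusted p of 0.428 from limma over the 13 families, of which 0 were called higher (0%) and 2 lower (15.4%), with 3 at an unadjusted p under 0.05, again 0 of them higher. The miR172e-3p sequence was under 10 RPM in both macadamia libraries and entered the fit only without the filter, where it had a log2 fold change of 1.40 (-1.16 to 3.96) and an adjusted p of 0.726 from limma. In that unfiltered fit rows had their own SE. The miR172a sequence then had an SE of 0.57 (95% interval -0.30 to 2.64) and an adjusted p of 0.505 from limma.

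The families whose log2 ratios of mature over juvenile leaves were most like those of miR172 were miR167, miR159 and miR393. Likeness was the mean absolute difference in this ratio over the 3 species. miR167, which targets ARF transcripts, differed by 1.15 on average, with log2 ratios of 0.07 in avocado, -0.16 in macadamia and 1.60 in mango. miR159 differed by 1.56, with log2 ratios of -0.71, -0.27 and 1.93. miR393 differed by 1.91, and it matched miR172 in avocado (2.02) but was at -0.71 in macadamia and -3.48 in mango. No family was close to miR172 in every species, and those at the other end were miR157, at a mean difference of 5.06, and miR156, at 3.87.

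Of the other families tied to flowering time in model plants (miR159, miR319, miR390 and miR399), all 4 were in the table. At 10 RPM or more were 2 of them in avocado, with 0 at least 2-fold higher and 1 lower, 3 in macadamia, with 1 higher and 1 lower, and 2 in mango, with 1 higher and 1 lower. Over all families, 53.3% were at least 2-fold lower in avocado, 33.3% in macadamia and 37.5% in mango. The family lower in each species was miR390, which guides tasiRNA production from TAS3, whereas the higher ones were miR399, a phosphate regulator, in macadamia and miR159 in mango. This list had a median log2 ratio of -1.27 for avocado, -0.27 for macadamia and 0.02 for mango, beside -1.39, -0.53 and -0.05 over all families. The age pathway list had miR172 as its 1 family at least 2-fold higher in avocado and 0 in macadamia and mango, against 2, 2 and 1 lower, with medians of -4.72, -2.81 and -0.55.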

How the data were processed

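Small RNA of leaves was sequenced from 6 libraries, 1 per species and age. The authors trimmed adapters (Trim Galore), took out ribosomal reads (BBduk) and counted the remaining reads with SCRAM on miRBase mature miRNAs of Arabidopsis and rice. No versions were stated. The deposited values are RPM, scaled by the authors to the reads of 20 to 24 nt and given to 3 decimals, so other small RNAs of this size also set the level of a miRNA.

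Columns were assigned to samples by their headings, and 0 were left over. Depth was the smallest read number for which all 53 distinct values of a library are whole reads within 0.0005 RPM. A whole multiple of it would serve as well. These read numbers are thus inferred from the rounded values, and with only 53 values a library too few are low to test the size of 1 read apart from this search, so no count test was run on them and intervals that use them depend on it. Families were summed over their more abundant arm together with entries that give no arm. Intervals are exact (Clopper-Pearson) at 95% on these reads, and PCR copies are not independent molecules. Fold counts used log2(RPM + 1), which understates low entries, and families or sequences at 10 RPM or more in 1 or both libraries of a species. Age was tested over the species with limma 3.58.1 (R 4.3.3), blocked by species, at a Benjamini-Hochberg adjusted p of 0.05. The 3 species stand in for replicates and leave 2 residual degrees of freedom per row. In the main fits, with the 10 RPM filter, all rows share 1 standard error. Their p-values and intervals thus rest on variance pooled over all rows, and sequences of the same family were treated as independent rows. Scripts were tested on simulated data. Python 3.11.15, scipy 1.17.1, pandas 2.3.3, numpy 2.4.6 and matplotlib 3.10.9 served for the rest.

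The members, lists and tests were chosen with earlier results of these data known. Named families were miR172, the age pathway, 4 flowering time families, the 3 families most like miR172 by mean absolute difference of log2 ratios, and the neighbours of miR172 in abundance. miR159 was also named for its share of mature mango after its values were seen. Alternatives were other scalings, pseudocounts, filters, folds, family sums, a fit without the species block and fits without each species. Scaling to listed reads without miR159 was added after seeing the data. Primer sequences came from the study's supplementary table. The qRT-PCR measurements were not analysed here.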

Additional observations from a re-analysis of the deposited data

Results flagged for a closer look

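The miR172e-3p sequence stood out because it was higher in the mature library of avocado and mango and lower in that of macadamia. Its log2 ratio of mature over juvenile leaves on RPM + 1 in avocado exceeded that in macadamia by 2.16, and that in mango exceeded it by 4.73. Both compare 1 pair of libraries with another and were not tested. The macadamia values rest on 14 and 1 reads with an interval that includes no difference.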

How the results depend on the processing

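The miR172 family kept its direction in avocado and macadamia under every alternative and lost it in mango under 1. Rescaled to the median family, the miR172 log2 ratio was 3.40 in avocado and 1.17 in macadamia. Per listed miRNA reads it was 3.10, 1.09 and, reversed, -0.21 in avocado, macadamia and mango (-0.24 for the miR172a sequence in mango), and without miR159 in that total, an alternative chosen after seeing the data, 3.24 and 1.35 in avocado and macadamia. The log2 ratio of miR172 to miR156 reads became, with miR157 added, -3.35 for juvenile and 3.65 for mature avocado, -2.33 for juvenile and 1.20 for mature macadamia, and -2.64 for juvenile and 0.73 for mature mango. The juvenile mango value without miR157 is 0.20, so the order turns there. The most abundant sequences alone left the direction of these ratios as it was.

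Families at least 2-fold higher numbered 6 in avocado and 4 in macadamia after rescaling, with 4 lower in avocado. At 4-fold, 4 were lower in avocado, 0 higher in macadamia and 2 higher in mango. In macadamia 4 were higher at 1.5-fold and 1 at 50 RPM. The shared effect was not called under any alternative run (adjusted p from 0.248 to 0.711 for the family and from 0.238 to 0.902 for the miR172a sequence, from limma). Leaving out 1 species gave log2 fold changes from 0.76 to 1.45 for the family and from 0.75 to 1.44 for the sequence, lowest without avocado. A count test on recovered reads was not run. Each group has 1 library, so no replicate number could serve as a block, and the species block pairs the juvenile and mature library of each species. Without that block the adjusted p from limma was 0.658 for the family and 0.902 for the miR172a sequence. Depth limits the miR172e-3p sequence, with 0 to 132 reads per library.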
